A study of Mus musculus with 18 samples.

Results

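Microglia that had grown from transplanted marrow were compared with the microglia that the same kind of recipient had kept from before the transplant. The comparison takes 8 of the 18 libraries of a series on brain macrophages after marrow transplantation, chosen by their labels alone: 4 libraries of HSC-derived microglia and 4 of host microglia, with every gene in the table. HSC stands for haematopoietic stem cell.

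All groups came from C57BL6/C wild type recipients that were lethally irradiated, received Ms4a3-Cre: R26-TdTomato: Cx3cr1-gfp marrow and were taken 32 weeks later, and a group without irradiation or transplant was not analysed here. Host microglia carried neither colour. HSC-derived microglia were GFP+ without tdTomato, and monocyte-derived microglia, compared here only where stated, carried both colours. The fit behind the tests held all 18 libraries, so the filter, scaling and spread also drew on the other groups. Ms4a3-Cre is active in granulocyte-monocyte progenitors, so its tdTomato label marks cells that passed through that stage; a donor cell in which Cre had failed would also be counted as HSC-derived, and the reporter genes were not analysed here. Up to 100000 parenchymal cells per library were sorted after the leptomeninges had been washed off. Donor cells carried the Cx3cr1-gfp allele and had not been irradiated in the recipient, while host cells lacked the allele and had been, so that origin, allele and irradiation cannot be told apart. Whether the replicates of a group were different mice is not stated, so p-values here measure only the spread between libraries, estimated over all 18. Sex, age and the strain of the donors are not stated either.

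Microglia normally descend from the yolk sac and renew themselves in the brain behind a closed blood-brain barrier. After lethal irradiation, marrow-derived cells can enter, take up a microglia-like position and shape, and persist. Microglial identity is held by transcription factors such as Sall1 under TGF-beta signalling from the brain, whereas blood-derived macrophages bring programmes of antigen presentation, lectin receptors and chemokines from their own lineage.

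Libraries of the donor cells differed in depth. The total was 1230127, 1908401, 2440234 and 1303688 UMI counts (counts of single RNA molecules) in host replicates 1 to 4, and 691691, 692884, 264795 and 317872 in HSC-derived replicates 1 to 4. Levels are given below as CPM, counts brought to the same library total after scaling by the trimmed mean of M-values (TMM), and 3 counts correspond to 1.05 to 2.15 CPM in a host library but to 4.25, 4.12, 15.4 and 11.7 CPM in the HSC-derived libraries. HSC-derived replicates 3 and 4 stood apart from replicates 1 and 2 in more than depth: ribosomal protein genes took 14.1% and 13.4% of their counts against 8.69% and 8.91%, and ribosomal pseudogenes 0.888% and 0.830% against 0.160% and 0.165%. In the host the same shares ran from 5.02% to 5.94% and from 0.0715% to 0.0852%. Apoe alone took 11.4%, 9.17%, 18.5% and 16.5% of the HSC-derived counts. Over all tested genes the rank correlation between libraries was 0.976 to 0.984 within the host, 0.949 between HSC-derived replicates 1 and 2, 0.803 between 3 and 4, and 0.763 to 0.813 between those pairs. Calls are therefore given with all 4 HSC-derived libraries and, for most lists and where the call of a named gene changes, with replicates 1 and 2 only. In bulk samples a change in the share of cells of a type and a change in RNA per cell cannot be told apart.

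HSC-derived microglia differed from host microglia across a wide part of the transcriptome. Of 10597 genes tested, 3114 passed an adjusted p of 0.05 (29.4%), 1723 higher (16.3%) and 1391 lower (13.1%) in the HSC-derived cells. With replicates 1 and 2 only, 2497 genes passed (23.6%), of which 1325 were higher (12.5%) and 1172 lower (11.1%). Counts of list members called below are to be read beside these shares. Both fits shared 2174 genes called in the same direction, and none was called in opposite directions. The fitted changes of the higher genes were larger: 218 were over 16-fold higher and 37 over 16-fold lower, with a median log2 change of 1.68 among the higher and -0.94 among the lower genes. Depth limits this comparison, since 3 counts were at most 2.15 CPM in a host library but 4.12 to 15.4 CPM in HSC-derived libraries. Large falls are therefore harder to measure than large rises. In 2870 genes (27.1%) no HSC-derived library overlapped a host library, with 1271 higher (12%) and 1599 lower (15.1%). The split depends on scaling: with library totals alone, which placed the median gene at -0.28, 1192 genes were higher and 2546 lower, against 1723 and 1391 under TMM, which placed it at 0.00.

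**Figure D1:**
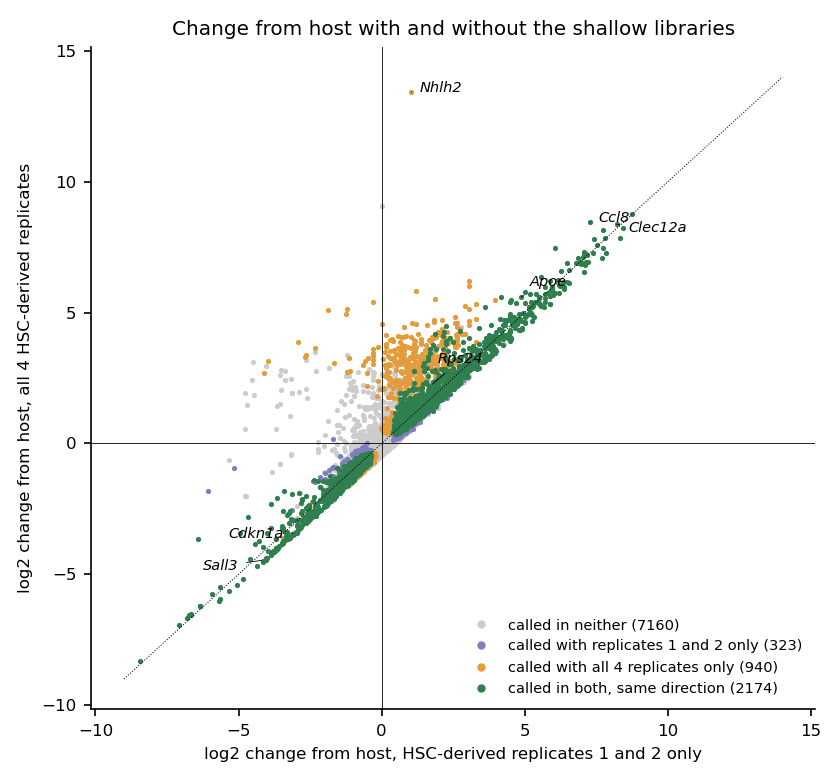
Each point is 1 of 10597 tested genes; the x axis is the log2 change from host with HSC-derived replicates 1 and 2 only, the y axis the log2 change with all 4 replicates, and the dotted line marks equal values. The 2174 genes called in both fits lie mostly near the line, while the 940 called only with all 4 replicates lie mostly above it on the higher side, with Nhlh2 at 1.04 on the x axis and 13.42 on the y axis.

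The microglial markers P2ry12, Tmem119 and Cx3cr1 were at lower levels in the HSC-derived cells but still present. Not every microglial gene was lower, and Csf1r, given below with the homeostatic genes, did not pass. P2ry12, the purinergic receptor that guides microglial processes to ATP, stood at 5096, 4126, 4379 and 5150.1 CPM in host replicates 1 to 4 and at 1356, 1510.3, 1066 and 1049 CPM in HSC-derived replicates 1 to 4. No library overlapped between the groups, and the log2 change was -1.91 (SE 0.22, adjusted p = 1.4e-08). Tmem119, a microglial surface protein, gave 2845, 2040.0, 2598 and 2945 CPM in the host and 1098, 963, 707 and 818 CPM in the HSC-derived cells, a log2 change of -1.53 (SE 0.17, adjusted p = 6.3e-09). Cx3cr1, the fractalkine receptor whose locus carries gfp in the donor, stood at 3904 ± 507 and 1407 ± 294 CPM (SD, n = 4 each; log2 change -1.47, adjusted p = 8.3e-08). For this gene the donor allele and the origin of the cells cannot be told apart.

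The 5 genes taken as markers of the contrast separated the groups without overlap. Ms4a7 (chromosome 19, 11321039 to 11336146, minus strand; positions are those of GENCODE vM21 on mm10), a multipass membrane protein of marrow-derived and border macrophages, was at 4.29, 12.3, 5.62 and 2.01 CPM in the host and at 754, 768, 999 and 1018 CPM in the HSC-derived libraries. Its log2 change was 7.07 (SE 0.26, adjusted p = 2.6e-21) with all libraries and 6.85 with replicates 1 and 2 only. All 4 HSC-derived libraries lay close together, whereas the highest host value was 6.11 times the lowest, from 3 to 27 counts.

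H2-Eb1 (chromosome 17, 34305867 to 34316674, plus strand), the beta chain of the class II molecule I-E, measured 10.02, 15.0, 22.1 and 14.7 CPM in the host against 2043, 2299, 2889.8 and 2199.5 CPM in HSC-derived cells (log2 change 7.20, SE 0.26, adjusted p = 2.6e-21). Apoe (chromosome 7, 19696109 to 19699188, minus strand), the lipoprotein that carries lipid out of macrophages and glia, rose from 3417, 3493, 3000.4 and 3576 CPM in the host to 111620.0, 87333, 250903 and 205665 CPM. Its log2 change was 5.603 (SE 0.29, adjusted p = 2.3e-17) and 4.88 with replicates 1 and 2 only. Apoe was lowest in HSC-derived replicate 2 and highest in replicate 3, and even replicate 2 stood far above the highest host library.

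Ccl8 (chromosome 11, 82115185 to 82116799, plus strand), a CC chemokine, was almost silent in the host, with 0, 0.455, 0.351 and 0 CPM from 2 counts in all, against 51.0, 56.3, 251 and 231 CPM in HSC-derived libraries. The ratio of scaled counts was 389.7 (106 to 3242). The lower of the shallow replicates 3 and 4 was 4.10 times the higher of 1 and 2, and both pairs stood above every host library (adjusted p = 4.6e-06 with all and 5.8e-11 with replicates 1 and 2 only). Sall3 (chromosome 18, 80966376 to 80986771, minus strand), a zinc finger factor of the Sall1 family, went the other way: 96.6, 78.2, 77.9 and 78.4 CPM in the host, and 5.67, 4.12, 0 and 0 CPM in HSC-derived libraries, where 7 counts were seen in all (log2 change -4.45, SE 0.38, adjusted p = 2.4e-11). The zeros in replicates 3 and 4 allow up to 15.4 and 11.7 CPM, still below the host range.

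**Figure D2:**
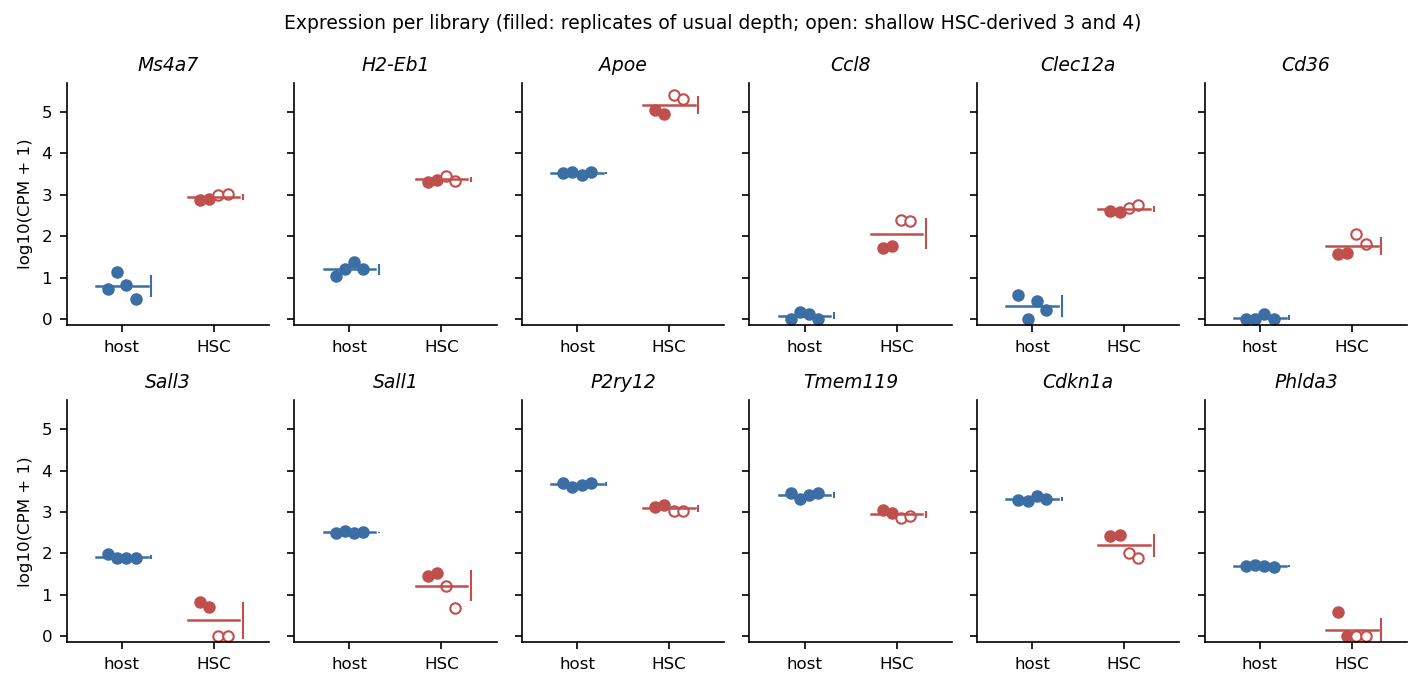
Level of 12 genes per library, as log10(CPM + 1), in host (blue) and HSC-derived (red) microglia; the horizontal bar is the mean of the 4 log values, the vertical line its SD, and open circles are the shallow HSC-derived replicates 3 and 4. Ms4a7, H2-Eb1, Apoe, Ccl8, Clec12a and Cd36 are higher and Sall3, Sall1, P2ry12, Tmem119, Cdkn1a and Phlda3 lower in all 4 HSC-derived libraries than in any host library.

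The 12 largest increases by the rule for named genes, Ccl8 above among them, covered receptors, enzymes and secreted proteins. Clec12a, an inhibitory C-type lectin, stood at 2.86, 0, 1.76 and 0.670 CPM in the host (10 counts) and 415, 392, 477 and 552 CPM in HSC-derived cells (log2 change 8.38, SE 0.30, adjusted p = 1.3e-21). Ctse, an endosomal aspartic protease, rose from 0.837 ± 0.178 to 164 ± 55.7 CPM (log2 change 7.32), and Plbd1, a phospholipase B-like protein, from 0.689 ± 0.547 to 110.1 ± 20.1 CPM (log2 change 7.27). Ms4a14, another gene of the Ms4a cluster, rose from 0.764 ± 0.694 to 94.1 ± 46.7 CPM (log2 change 6.94). These were on in every HSC-derived library and close to the counting floor in every host library.

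For 5 further genes of this group the host libraries held 1 or 2 counts, so that only ratios of scaled counts with exact 95% intervals are given. Cd36, the scavenger receptor and fatty acid transporter, gave 36.8, 38.5, 113 and 62.6 CPM in HSC-derived replicates 1 to 4 and a ratio of 388 (67.9 to 15473). The pantetheinase Vnn3 gave 484 (85.2 to 19300.4), the Ly49 receptor gene Klra2 320.2 (87.1 to 2668), the TGF-beta family ligand Gdf3 265 (72.0 to 2216) and the galactose-binding lectin Mgl2 196 (52.7 to 1642). The rule that chose these genes required a pass with all libraries and with replicates 1 and 2 only, and no overlap with the host.

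The largest decreases covered enzymes, membrane proteins and regulators of cell shape, and the host levels lay well above the floor of the shallow libraries. Mymk, known as the fusion protein of muscle precursors, fell from 67.7 ± 20.0 to 2.13 ± 4.25 CPM (log2 change -4.39, adjusted p = 5.6e-09). The glycosyltransferase B3galt5 went from 51.5 ± 5.97 to 1.72 ± 3.44 CPM and the tetraspanin-like gene Upk1b from 233, 201, 199 and 184 CPM in the host to 11.3, 17.9, 5.12 and 0 CPM in HSC-derived libraries (log2 change -4.25 and -4.14). In HSC-derived cells Mymk was seen only in replicate 1 and B3galt5 only in replicate 2, so that their fitted changes without that library (-9.39 and -8.99) are set by the prior count of the fit. Mlph, which links Rab27a to myosin on granules, Nav3, a microtubule-binding protein, and the phospholipase Liph had log2 changes of -4.11, -4.08 and -4.05. Fscn1, an actin-bundling protein of microglial and dendritic processes, stood at 327, 377, 351 and 307 CPM in the host and 28.3, 38.5, 25.6 and 15.7 CPM in the HSC-derived cells (log2 change -3.52, SE 0.20, adjusted p = 2.8e-16). The adenylate kinase Ak1 and the membrane protein Tmem204 completed the 12 lowest, at log2 changes of -3.56 (-4.50 without HSC-derived replicate 2) and -3.45, together with Enpp2, which is described with the choroid plexus genes, and Sall1 and Sall3.

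Transcription factors of microglial identity were lower more often than higher. Of 25 tested, 10 were called lower and 2 higher, with a median log2 change of -0.41, beside 13.1% lower, 16.3% higher and a median of 0.00 over all genes. With replicates 1 and 2 only, 8 were lower and 3 higher, and with library totals alone 15 and 1. Sall1 (chromosome 8, 89027235 to 89044162, minus strand), the factor that holds microglia apart from other macrophages, measured 318, 338, 316 and 332 CPM in the host and 26.9, 33.0, 15.4 and 3.91 CPM in HSC-derived cells. The highest host library was 1.07 times the lowest and the highest HSC-derived library 8.43 times the lowest, with replicate 4 the lowest (log2 change -3.75, SE 0.24, adjusted p = 9.9e-15). Sall1 was lower but not absent, since 47 counts were seen in the 4 HSC-derived libraries.

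Smaller decreases were called for Hhex, Ets1, Tgif2 and Smad3 among others, of which the call of Tgif2 was lost without any 1 of host replicates 1 or 3 or HSC-derived replicates 1, 2 or 4. That of Smad3 was lost when the 8 libraries were thinned to the depth of the shallowest (log2 change -0.82, adjusted p = 0.065). Hhex, a homeobox factor, went from 133 ± 15.5 to 50.4 ± 13.3 CPM (log2 change -1.37, adjusted p = 4.8e-07), and Smad3, which carries the TGF-beta signal to the nucleus, from 62.9 ± 8.36 to 26.8 ± 11.4 CPM (log2 change -1.02, adjusted p = 0.00066). Irf8, Runx1 and Nr3c1 were called lower with all libraries (log2 changes -0.52, -0.45 and -0.50) but not with replicates 1 and 2 only (adjusted p = 0.088, 0.11 and 0.060). Runx1 also lost its call without host replicate 2 or without HSC-derived replicate 3.

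Factors that all macrophages share had small estimated changes. Spi1, which encodes PU.1, stood at 242 ± 28.5 CPM in the host and 311 ± 64.5 CPM in HSC-derived cells (log2 change 0.33, adjusted p = 0.11), and Mef2a, a factor of microglial enhancers, at 347 ± 30.0 and 302 ± 9.71 CPM (log2 change -0.20, adjusted p = 0.27). The haematopoietic adaptor Lmo2 was called higher under TMM but not with library totals alone, at a log2 change of 0.49 and the repressor Bhlhe40 at 2.07, the latter from 26 HSC-derived and 25 host counts. Maf was called higher with replicates 1 and 2 only (log2 change 0.51, adjusted p = 0.0063; 0.074 with all libraries). Cebpa was called lower there (log2 change -0.52, adjusted p = 0.040; 0.11 with all). A missed threshold does not show that a factor was equal in both groups.

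Homeostatic surface and secreted genes of microglia moved mostly downward. Of 32 tested, 24 were called lower and 2 higher, with a median log2 change of -0.77; with replicates 1 and 2 only 21 were lower and 2 higher. Selplg, the selectin ligand PSGL-1, showed the largest decrease among the abundant ones, from 5769, 6363, 5449.9 and 5601 CPM in the host to 1059.9, 1152, 687 and 681 CPM in HSC-derived libraries (log2 change -2.68, SE 0.21, adjusted p = 1.3e-12). Ltc4s, which makes leukotriene C4, went from 1571 ± 153 to 538 ± 59.3 CPM (log2 change -1.55). Another 6 passed in neither direction, among them 3 receptor genes named after their values were seen. Csf1r, the receptor for the survival factor of microglia, stood at 4809 ± 157 CPM in the host and 4212 ± 125 CPM in HSC-derived cells (log2 change -0.19, adjusted p = 0.41), the lipid receptor Trem2 at 3185 ± 144 and 3423 ± 841 CPM (log2 change 0.10, adjusted p = 0.72), and its adaptor Tyrobp at 3657 ± 134 and 4949.7 ± 1933 CPM (log2 change 0.43, adjusted p = 0.10).

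Purinergic and adenosine receptors, which read extracellular nucleotides, also went both ways. Among 14 tested, 6 were lower and 4 higher (5 and 3 with replicates 1 and 2 only, 7 and 3 with library totals alone; median log2 change -0.35). Adora3, an adenosine receptor, fell from 189, 181, 185 and 193 CPM in the host to 24.1, 21.99, 5.12 and 0 CPM in HSC-derived cells, and its zero or near-zero values were those of the shallow replicates (log2 change -3.41 with all libraries and -3.02 with 1 and 2). The ADP receptor P2ry13 went from 880.5 ± 98.6 to 347 ± 106 CPM (log2 change -1.31). P2ry14, a receptor for UDP-glucose, rose from 2.74 ± 1.39 to 23.4 ± 8.18 CPM (log2 change 2.92, adjusted p = 4.2e-07).

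Genes described for marrow-derived brain macrophages were higher throughout. All 26 tested members were called higher with all libraries and again with replicates 1 and 2 only, at a median log2 change of 4.11. The edgeR quasi-likelihood test (QL, the test used throughout), DESeq2 and limma voom called none lower, nor did the QL test at an unadjusted p of 0.05. Cybb, the catalytic subunit of the phagocyte NADPH oxidase, had 15.7, 21.8, 15.1 and 17.4 CPM in the host and 660.3, 596, 543 and 665 CPM in HSC-derived cells (log2 change 5.13, SE 0.18, adjusted p = 1.3e-21). Ms4a7, Apoe and Clec12a, given above, belong to the same list. Its members were chosen with earlier results of these data known, so that the full count of calls is not independent support.

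Border macrophage genes, which mark macrophages of the meninges and perivascular spaces, gave 16 higher and 2 lower of 24 (17 and 1 with replicates 1 and 2 only), with a median log2 change of 3.07. Mrc1, the mannose receptor, stood at 28.6, 25.5, 24.2 and 28.1 CPM in the host and at 660.3, 581, 538 and 646 CPM in HSC-derived cells (log2 change 4.52, SE 0.18, adjusted p = 1.9e-20). The chemokine Pf4 rose from 4.82 ± 0.870 to 621 ± 199 CPM (log2 change 6.91), the transglutaminase subunit F13a1 from 0.817 ± 0.878 to 104 ± 21.97 CPM (log2 change 6.88; 7.48 without host replicate 4), and Cd163, the haemoglobin scavenger receptor, from 0.624 ± 0.559 to 38.4 ± 16.2 CPM (log2 change 5.73, adjusted p = 1.1e-07). Summed over the border list, host libraries held 1943 to 2104 CPM and HSC-derived libraries 4058 to 4604 CPM. The part of leptomeningeal or perivascular cells in these values was not tested.

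**Figure D3:**
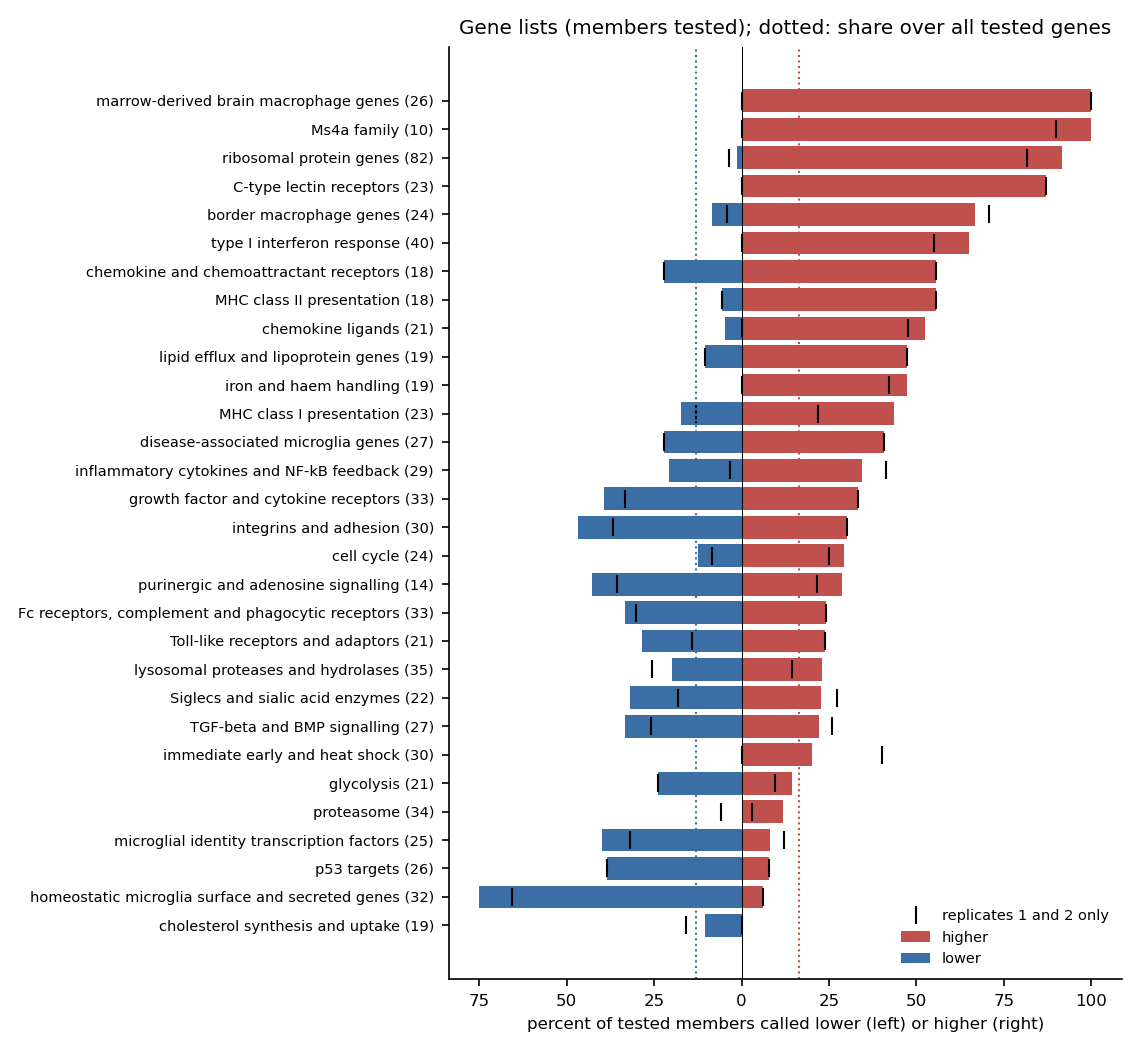
Share of the tested members of each gene list, lists of other cell types left out, called higher (red, right) or lower (blue, left) in HSC-derived against host microglia, in percent, with the number tested in brackets; black ticks give the shares with HSC-derived replicates 1 and 2 only, and dotted lines the 16.3% higher and 13.1% lower over all tested genes. The marrow-derived, Ms4a, lectin and ribosomal lists reach furthest to the right and the homeostatic list reaches furthest to the left, followed by the integrin list.

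MHC class II molecules present peptides from the endosome to CD4 T cells; Ciita switches their genes on together with the RFX complex and NF-Y, which bind conserved promoter boxes, and Cd74 chaperones the new alpha and beta chains. The Y box bound by NF-Y is shown for 2 chains that rose and for H2-Oa, which fell. Capitals mark the letters CTGATTGG, searched on both strands in the 250 bases before each RefSeq start (GRCm38.p6); H2-Oa is cut to 30 bases around them. The windows are chr17:34305617-34305866 (plus strand) for H2-Eb1, chr17:34287824-34288073 (minus strand) for H2-Aa and chr17:34092322-34092351 (plus strand) for H2-Oa.
H2-Eb1: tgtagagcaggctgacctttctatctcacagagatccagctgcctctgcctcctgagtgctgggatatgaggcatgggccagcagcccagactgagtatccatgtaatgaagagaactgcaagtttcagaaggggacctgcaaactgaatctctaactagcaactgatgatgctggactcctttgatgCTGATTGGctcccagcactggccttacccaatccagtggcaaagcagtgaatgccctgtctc
H2-Aa: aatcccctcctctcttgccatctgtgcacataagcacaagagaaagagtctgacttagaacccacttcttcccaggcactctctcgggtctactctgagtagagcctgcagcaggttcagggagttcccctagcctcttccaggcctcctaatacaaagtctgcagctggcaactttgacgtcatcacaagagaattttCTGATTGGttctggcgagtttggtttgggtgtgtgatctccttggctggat
H2-Oa: agagaactgctCTGATTGGctgcttaccgc
The letters began 62, 51 and 46 bases before the start of H2-Eb1, H2-Aa and H2-Oa. Of 19 listed class II genes 13 matched the promoter table and 4 of these held the 8 letters. With 1 start a gene, 4.07% of 27025 genes held them, 5.33% of the 8036 genes tested here, 4.78% of those called higher and 4.46% of those called lower. The shorter ATTGG, part of the same box, stood in 10 of the 13 when any start of a gene counted. With 1 start a gene it stood in 34.5% of the 27025 genes, so the 2 shares are not counted alike.

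The classical class II chains and their chaperone were the most changed of the list. H2-Aa, the I-A alpha chain, gave 33.6, 33.7, 55.8 and 29.5 CPM in host libraries and 3473, 3869.9, 4524 and 3483 CPM in HSC-derived libraries (log2 change 6.63, SE 0.28, adjusted p = 3.9e-20). H2-Ab1, the I-A beta chain, gave 50.3 ± 9.74 and 3827 ± 359 CPM (log2 change 6.24), and Cd74, the invariant chain, 49.5 ± 2.52 and 3178 ± 369.6 CPM (log2 change 5.997, SE 0.23, adjusted p = 4.8e-21). Shallow or not, the highest HSC-derived library was at most 1.41 times the lowest for each of these and for H2-Eb1. Ciita rose from 0, 0.455, 5.97 and 1.34 CPM in the host to 49.6, 48.1, 35.9 and 31.3 CPM in HSC-derived cells (log2 change 4.11, adjusted p = 2.2e-07; 5.97 without host replicate 3, the highest host library).

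Over the whole pathway, 10 of 18 tested members were higher and 1 lower in both fits (7 and 2 with library totals alone), with a median log2 change of 0.55. The peptide exchange factor H2-DMa rose from 589.5 ± 57.0 to 989.6 ± 141 CPM (log2 change 0.74), H2-DMb1 by 0.57 and H2-DMb2 by 1.204 on the log2 scale. H2-Oa, part of the H2-DM inhibitor, fell from 91.6, 109, 101 and 96.4 to 39.7, 55.0, 46.1 and 15.7 CPM (log2 change -1.24, adjusted p = 0.0018), while its partner H2-Ob stood at 56.4 ± 6.74 and 59.8 ± 11.3 CPM (adjusted p = 0.67). The calls of H2-DMa, H2-DMb1 and Cd86 were lost with library totals alone, and that of Cd86 also without any 1 of host replicates 1 or 2 or HSC-derived replicates 1 or 2. The co-stimulatory genes Cd40 and Cd86 rose by 2.22 and 0.52, and Cd80 did not pass (log2 change 0.26, adjusted p = 0.50). Neither did the RFX subunit Rfx5 (log2 change -0.20, adjusted p = 0.73) or the processing enzymes Ctss and Ifi30 (log2 changes 0.24 and -0.21, adjusted p = 0.39 and 0.41).

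**Figure D4:**
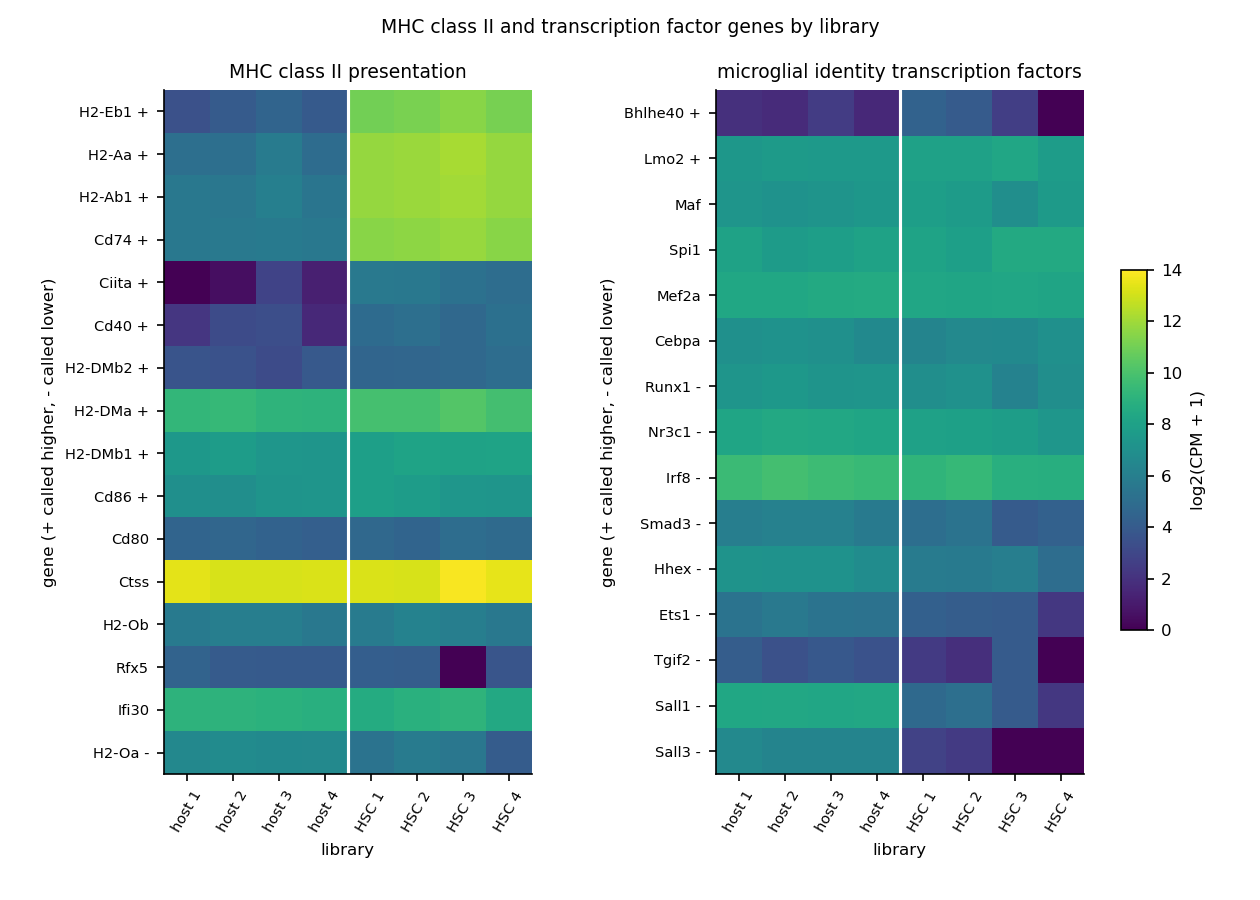
Heat map of log2(CPM + 1) in the 8 libraries for the class II genes (left) and transcription factors (right) named in the text, ordered by log2 change; a plus or minus after the name marks a call. H2-Eb1, H2-Aa, H2-Ab1 and Cd74 are bright in all 4 HSC-derived columns and dark in all host columns, and Sall1 and Sall3 show the reverse.

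Class I presentation, by which every cell shows its own peptides to CD8 T cells, was called in part of its members. Of 23 tested members 10 were higher and 4 lower with all libraries, beside 16.3% and 13.1% over all genes, at a median log2 change of 0.29. With replicates 1 and 2 only 5 were higher and 3 lower. Scaled by library totals, 6 were higher and 5 lower at a median of -0.01. B2m, the shared light chain, stood at 5624, 4331, 4398 and 5798 CPM in the host and 7736, 7409, 9827 and 10696 CPM in HSC-derived cells (log2 change 0.82, adjusted p = 0.00055; 0.59 with replicates 1 and 2). The immunoproteasome subunit Psmb9 rose from 162 ± 14.7 to 328 ± 89.6 CPM (log2 change 0.97). The non-classical class I genes H2-Q6 and H2-Q7 rose by 1.77 and 1.33 on the log2 scale (adjusted p = 0.00090 and 4.5e-06), H2-Q6 from 13.2 ± 2.13 to 51.1 ± 21.6 CPM, but reads from near-identical H2-Q genes cannot be separated with certainty.

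Interferon response genes were higher or did not pass. Of 40 tested, 26 were higher and none lower (22 and none with replicates 1 and 2 only), with a median log2 change of 1.15. None was lower at an unadjusted p of 0.05 in the QL test, or in DESeq2 or limma voom. The Ifi200 family led: Ifi207 stood at 10.02, 13.2, 18.6 and 6.03 CPM in the host and at 272, 250.1, 149 and 204 CPM in HSC-derived cells (log2 change 4.15, SE 0.22, adjusted p = 1.0e-16). Ifi204 rose from 39.5 ± 8.23 to 218 ± 56.6 CPM and Ifi211 from 2.47 ± 1.44 to 63.1 ± 19.1 CPM (log2 changes 2.45 and 4.35), with the caution that these genes are near-identical copies of each other. Ifitm2, a membrane protein that limits virus entry, had a log2 change of 3.29. The other 14 did not pass. They included Ifit1 and Rsad2, classical interferon targets named after their values were seen, at log2 changes of 0.10 and 0.63 (adjusted p = 0.92 and 0.49).

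Chemokine ligands and receptors were higher more often than lower. Of 21 ligands tested 11 were higher and 1 lower (10 and none with replicates 1 and 2 only, 9 and 2 with library totals alone; median log2 change 1.41). Cxcl16, a membrane-bound ligand, was at 115, 109, 94.1 and 106 CPM in the host and at 418, 418, 420.2 and 481 CPM in HSC-derived cells (log2 change 2.03, adjusted p = 1.4e-13). The monocyte attractants Ccl7 and Ccl12 rose from 3.64 ± 1.35 to 64.6 ± 9.68 CPM and from 262 ± 30.0 to 801 ± 84.7 CPM (log2 changes 4.06 and 1.61).

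Of 18 chemoattractant receptors 10 were higher and 4 lower in both fits. Cxcr4, the receptor that retains cells in marrow through Cxcl12, measured 1.43, 1.82, 2.11 and 2.68 CPM in the host and 77.9, 85.2, 82.0 and 82.2 CPM in HSC-derived cells (log2 change 5.27, SE 0.26, adjusted p = 1.1e-17). Ccr2, which brings monocytes out of marrow and into tissue, stood at 12.2, 8.64, 7.37 and 7.37 and 113, 118, 118 and 86.1 CPM (log2 change 3.66, adjusted p = 2.4e-15). The prostaglandin receptor Ptger4 rose by 4.82 on the log2 scale. In the other direction, the complement receptor C5ar1 fell from 38.96 ± 6.79 to 3.73 ± 2.57 CPM (log2 change -3.17, adjusted p = 6.2e-08).

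C-type lectin receptors, which bind sugars on microbes and dying cells, were mostly higher. Of 23 tested, 20 were higher and none lower in both fits, at a median log2 change of 4.35, and none was lower in DESeq2, limma voom or the QL test at an unadjusted p of 0.05. Clec2d rose from 47.1 ± 10.4 to 299 ± 19.4 CPM (log2 change 2.67), Clec4n, known as dectin-2, from 4 host counts in all to 28.8 ± 4.79 CPM (log2 change 5.54), and Clec7a, the beta-glucan receptor dectin-1, from 26.8 ± 2.28 to 119 ± 25.02 CPM (log2 change 2.20). The Ms4a family gave 10 higher of 10 tested, 9 with replicates 1 and 2 only, at a median of 3.21. Ms4a6c went from 72.7 ± 5.82 to 665 ± 58.2 CPM and Ms4a4c from 7.56 ± 1.36 to 135 ± 47.8 CPM (log2 changes 3.19 and 4.11). Tmem176a, listed with them, rose from 191 ± 32.2 to 1805 ± 397 CPM.

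Phagocytic, Fc and complement receptors did not move as 1 group, with 8 higher and 11 lower of 33 (8 and 10 with replicates 1 and 2 only, 6 and 14 with library totals alone) and a median of -0.03. Axl, a receptor for dying cells, had 61.6, 92.3, 79.3 and 60.3 CPM in the host and 526, 535, 605 and 712 CPM in HSC-derived cells (log2 change 2.99, SE 0.18, adjusted p = 1.1e-15). The scavenger receptor Msr1 and the membrane protein Cd93 rose by 4.72 and 6.83 on the log2 scale, from 8 and 5 host counts. Of 22 Siglecs and sialic acid enzymes 5 were higher and 7 lower (6 and 4 with replicates 1 and 2 only, 4 and 10 with library totals alone). Beside both lists, 16.3% of all genes were higher and 13.1% lower with all libraries. Siglecf fell from 44.4 ± 5.25 to 7.28 ± 5.697 CPM and the ganglioside synthase St3gal5 from 204 ± 21.1 to 22.2 ± 16.8 CPM (log2 changes -2.90 and -2.90), while the polysialyltransferase St8sia4 rose by 3.46. Cmah, which makes the sialic acid Neu5Gc, had 1 host count against 48.2, 46.7, 25.6 and 23.5 CPM in HSC-derived libraries, a ratio of 333 (58.0 to 13309.9).

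Disease-associated microglia genes, a set that rises around amyloid plaques, gave 11 higher and 6 lower of 27 in both fits, with a median of 0.43. Besides Apoe, Igf1, the growth factor, rose from 1.43, 2.27, 3.51 and 4.69 CPM in the host to 118, 109, 210.1 and 278 CPM in HSC-derived cells (log2 change 5.71, SE 0.31, adjusted p = 3.4e-15), with the shallow replicates the highest. Cd9, a tetraspanin of the same set, fell from 1268 ± 73.5 to 306 ± 76.9 CPM (log2 change -2.06, adjusted p = 3.6e-12). Among lipid efflux genes 9 of 19 were higher and 2 lower in both fits (7 and 4 with library totals alone). The phospholipid transfer protein Pltp rose from 4.98 ± 1.58 to 141 ± 42.3 CPM (log2 change 4.66) and the lipid droplet coat Plin2 from 17.7 ± 3.68 to 58.6 ± 16.6 CPM (log2 change 1.54).

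Of 19 genes of cholesterol synthesis and uptake none was higher and 2 were lower (none and 3 with replicates 1 and 2 only), beside 16.3% higher and 13.1% lower over all genes. None was higher in DESeq2, limma voom or the QL test at an unadjusted p of 0.05. Srebf1, a master factor of lipid synthesis, and Scap, its escort protein, were lower (log2 changes -1.01 and -0.79, adjusted p = 0.0021 and 0.00048), and both calls were lost when the 8 libraries were thinned to the depth of the shallowest (adjusted p = 0.38 and 0.084). Srebf2 was called lower with replicates 1 and 2 and not with all libraries (log2 change -0.97, adjusted p = 0.012; 0.073 with all).

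Targets of p53, which respond to DNA damage, were lower more often than higher in HSC-derived cells. Of 26 tested 10 were lower and 2 higher in both fits, with a median log2 change of -0.58. Over all genes 13.1% were lower and 16.3% higher with all libraries. Cdkn1a, the cell cycle inhibitor p21, measured 1921, 1876, 2457 and 2045 CPM in the host and 264, 273, 102 and 78.3 CPM in HSC-derived libraries (log2 change -3.42, SE 0.29, adjusted p = 1.3e-08). The lowest host library stood 6.86 times above the highest HSC-derived library, and the shallow replicates were the lowest. Phlda3, an inhibitor of Akt, had 48.7, 50.5, 49.5 and 46.2 CPM in the host and 2 counts in all in HSC-derived libraries, a ratio of 0.0217 (0.00261 to 0.0788). Sesn2 fell from 52.5 ± 5.75 to 8.12 ± 5.84 CPM (log2 change -2.47), and its relative Sesn1 rose from 132 ± 14.9 to 281 ± 61.6 CPM (log2 change 1.14, adjusted p = 2.1e-07).

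Among 33 growth factor and cytokine receptors 13 were lower and 11 higher (11 and 11 with replicates 1 and 2 only), but 17 lower and 4 higher with library totals alone, which gave 1192 genes higher and 2546 lower over all genes. Csf3r, the receptor for G-CSF, fell from 299.6 ± 63.3 to 92.4 ± 35.2 CPM (log2 change -1.56) and Ifngr1, an interferon gamma receptor chain, from 483 ± 38.2 to 215 ± 40.7 CPM (log2 change -1.12). The plasma cell receptor gene Tnfrsf17 had a log2 change of -3.64, and Tnfrsf11a, the receptor RANK, rose from 47.6 ± 1.86 to 140.3 ± 28.4 CPM (log2 change 1.59). In TGF-beta and BMP signalling 6 of 27 were higher and 9 lower (7 and 7 with replicates 1 and 2 only). Eng, a co-receptor, had 189.7, 215, 191 and 190.2 CPM in the host and 43.9, 44.0, 30.7 and 50.9 CPM in HSC-derived cells (log2 change -2.18, adjusted p = 1.0e-10), while the matrix protein Tgfbi rose from 66.8 ± 4.44 to 394 ± 10.4 CPM and the latent TGF-beta binding protein Ltbp3 by 2.63 on the log2 scale.

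Among 30 integrin and adhesion genes 14 were lower and 9 higher (11 and 9 with replicates 1 and 2 only). Itga4, the alpha chain of the integrin VLA-4, stood at 0.716, 1.36, 1.76 and 2.68 CPM in the host and 93.5, 56.3, 56.4 and 82.2 CPM in HSC-derived cells (log2 change 5.40, SE 0.30, adjusted p = 2.2e-16). Its ligand Vcam1 was higher in the same cells, at 44.6 ± 5.62 CPM in the host and 361 ± 125 CPM in HSC-derived libraries (log2 change 3.03).

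Inflammatory cytokines and NF-kB feedback genes gave 10 higher and 6 lower of 29 with all libraries, 12 higher and 1 lower with replicates 1 and 2 only, and 8 higher and 9 lower with library totals alone. Nfkbiz, a nuclear co-regulator of NF-kB, had 53.7, 45.0, 47.7 and 43.5 CPM in the host and 234, 264, 143 and 109.6 CPM in HSC-derived cells (log2 change 2.07, adjusted p = 3.9e-05). Ptgs2, the inducible cyclooxygenase (log2 change 3.43 without HSC-derived replicate 1), rose from 2.80 ± 0.549 to 44.3 ± 25.3 CPM and Casp1, the inflammasome protease, from 65.4 ± 9.41 to 163 ± 16.7 CPM (log2 changes 4.05 and 1.33). Among 21 Toll-like receptor genes 5 were higher and 6 lower, beside 16.3% and 13.1% over all genes. With replicates 1 and 2 only 5 were higher and 3 lower, and with library totals alone 4 and 7. Tlr2 rose from 143 ± 12.9 to 266 ± 64.3 CPM, Ly96, the co-receptor of Tlr4, by 2.00 on the log2 scale, and the adaptor Tirap fell from 36.8 ± 0.906 to 12.5 ± 10.5 CPM (log2 change -1.46).

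Immediate early and heat shock genes were higher in 6 of 30 with all libraries, beside 16.3% over all genes, and in 12 of 30 with replicates 1 and 2 only, beside 12.5%. With library totals alone 4 were higher and 2 lower, while under TMM none was called lower (1 at an unadjusted p of 0.05 in the QL test, none in DESeq2 or limma voom). Fosb stood at 30.8, 31.4, 32.7 and 34.2 CPM in the host and 147, 149.8, 66.6 and 82.2 CPM in HSC-derived cells (log2 change 1.91), and Hspa1a, the inducible Hsp70, at 509 ± 25.2 and 1056 ± 285 CPM (log2 change 1.07). For both genes replicates 1 and 2 were the highest. Tissue dissociation can also induce such genes, and its part was not tested.

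Of 35 lysosomal genes 8 were higher and 7 lower with all libraries, 5 higher and 9 lower with replicates 1 and 2 only, and 4 higher and 14 lower with library totals alone. Over all genes 16.3% were higher and 13.1% lower with all libraries, to be read beside each list of this paragraph. The cathepsin Ctsc rose from 356 ± 14.4 to 1132 ± 174 CPM and Ctsl fell from 1289 ± 29.4 to 481 ± 46.9 CPM (log2 changes 1.67 and -1.41). Iron and haem genes gave 9 higher and none lower of 19 (8 and none with replicates 1 and 2 only), although 6 were higher and 2 lower when scaled by library totals; neither DESeq2, limma voom nor an unadjusted p of 0.05 in the QL test gave a lower one. Cp, the ferroxidase ceruloplasmin, stood at 15.7, 21.4, 21.1 and 26.1 CPM in the host and 553, 547, 461 and 509 CPM in HSC-derived cells (log2 change 4.62, SE 0.19, adjusted p = 1.9e-20). Of 21 glycolysis and sugar transport genes 3 were higher and 5 lower (2 and 5 with replicates 1 and 2 only, 2 and 9 with library totals alone). Slc2a5, the fructose transporter by which microglia are often recognised, fell from 608 ± 37.1 to 55.1 ± 34.9 CPM (log2 change -3.22) and Slc2a6 rose by 2.65. Cell cycle genes gave 7 higher and 3 lower of 24 (6 and 2 with replicates 1 and 2 only, 4 and 4 with library totals alone). Mki67, a marker of dividing cells, rested on 15 HSC-derived and 8 host counts (log2 change 2.87, adjusted p = 0.0024), and Ccnd1, a G1 cyclin, fell from 309 ± 17.99 to 187 ± 26.7 CPM. The call of Ccnd1 was lost when the 8 libraries were thinned to the depth of the shallowest (adjusted p = 0.076). Proteasome genes were higher in 4 of 34 with all libraries, beside 16.3% over all genes. With replicates 1 and 2 only 1 was higher and 2 lower, and with library totals alone 3 were higher and 8 lower. Under TMM with all libraries none was lower in the QL test, also at an unadjusted p of 0.05, none in DESeq2 and 2 in limma voom.

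Ribosomal protein genes were higher in 75 and lower in 1 of 82, at a median log2 change of 1.504, and with replicates 1 and 2 only in 67 and 3 at a median of 0.81. Rps24 shows the steps: 780.3, 745, 797 and 1088 CPM in the host, 2696, 2729, 4765 and 5096 CPM in HSC-derived replicates 1 to 4 (log2 change 2.16 with all and 1.67 with replicates 1 and 2). Replicates 3 and 4 were the highest, replicates 1 and 2 lay between them and the host, and no library overlapped between the groups.

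Markers of other cells were read as sums over each list and by their defining genes. Neutrophil genes were close to absent, with S100a9, Retnlg and Camp at 0 in all 8 libraries and the list at 229 to 376.1 CPM in the host and 62.6 to 128 CPM in HSC-derived cells, most of it Csf3r. The monocyte list summed to 88.7 to 123 CPM in the host and 174 to 445 CPM in HSC-derived cells, with 7 of 15 higher and 1 lower; its defining gene Ly6c2 gave 15 HSC-derived and 8 host counts (log2 change 2.85, adjusted p = 0.0011). T and NK genes summed to 112 to 176 CPM in the host and 66.6 to 499 CPM in HSC-derived libraries, with 8 of 19 higher. Beside the monocyte and T and NK lists, 16.3% of all genes were higher and 13.1% lower. Cd3e rested on 9 and 3 counts and Trbc1 on 43 and 48. Without HSC-derived replicate 2 the calls of Ly6c2, Cd3e and Trbc1 were lost, that of Trbc1 also without replicate 4. None of the T and NK genes was lower in the QL test, also at an unadjusted p of 0.05, in DESeq2 or in limma voom, and the part of monocytes and lymphocytes in the results was not tested.

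Dendritic cells also carry class II, and of 12 dendritic genes 5 were higher and 2 lower. The list summed to 2294 to 2492 CPM in the host and 1363 to 1591 CPM in HSC-derived libraries, but it holds Fscn1, given above, and Siglech, a microglial gene, at 1805 ± 82.1 CPM in the host and 1147 ± 24.5 CPM in HSC-derived cells. Flt3, a growth factor receptor of dendritic precursors, gave 9.92, 21.99, 0 and 3.91 CPM in HSC-derived libraries and 1 host count, a ratio of 101 (16.5 to 4158). Clec9a, a receptor of cross-presenting dendritic cells, gave 4.25, 8.25, 15.4 and 3.91 CPM and 2 host counts, a ratio of 27.4 (6.20 to 249.9). Both were at levels of a few counts, Flt3 highest in replicate 2 and Clec9a in replicate 3, and the part of dendritic cells in the class II result was not tested.

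Choroid plexus genes were a feature of the host libraries. Of 7 tested 5 were lower and none higher in HSC-derived cells, the latter also at an unadjusted p of 0.05 in the QL test and in DESeq2 and limma voom, and the list summed to 2116 to 3627 CPM in the host and 20.6 to 493 CPM in HSC-derived libraries. Enpp2, the enzyme autotaxin and 1 of the 12 lowest genes above, gave 129, 225, 231 and 168 CPM in the host and 26.9, 1.37, 5.12 and 0 CPM in HSC-derived cells, in order of replicate. Kl gave 47 host counts and none in HSC-derived libraries, at least 3.72-fold lower when 3 counts are taken for that group. Genes of neurons, oligodendrocytes and fibroblasts went with the shallow pair: 2 of 3 neuronal, 2 of 6 oligodendrocyte and 4 of 8 fibroblast and mural genes were higher with all libraries, and none, none and 2 with replicates 1 and 2 only. The neuronal list summed to 14798 and 17718 CPM in HSC-derived replicates 3 and 4, nearly all of it the single gene Nhlh2, described below. Ptgds, a prostaglandin synthase of the meninges, gave 80.8, 68.7, 574 and 497 CPM in HSC-derived replicates 1 to 4 and 22.3 ± 8.13 CPM in the host.

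The shallow replicates 3 and 4 carried a signal of their own inside the HSC-derived group, described here without a test. Of 3173 genes at 50 CPM or more, 162 were at least 2 times as high in both shallow as in both deeper libraries, and 52 were at most 0.5 times as high. Nhlh2, a neuronal transcription factor, gave 1.417, 1.37, 14664 and 17663 CPM in replicates 1 to 4 and at most 0.91 CPM in the host, and its call (adjusted p = 0.028) was lost with replicates 1 and 2 only (adjusted p = 0.97). The retro-copy Rps3a2 gave 18.4, 12.4, 261 and 207 CPM and Rpl37rt 45.3, 74.2, 605 and 552 CPM, and the cell cycle gene Fbxo5 26.9, 27.5, 338 and 172 CPM. The calls of these 3 genes were lost without either shallow replicate, those of Rps3a2 and Fbxo5 also without any 1 of host replicates 1 to 3, and that of Nhlh2 without HSC-derived replicate 4 or any 1 host library. On the other side were early response genes: Gadd45b gave 132, 140.2, 15.4 and 19.6 CPM, Nr4a1 244, 181, 41.0 and 50.9 CPM and Dusp2 90.7, 81.1, 25.6 and 15.7 CPM. The chemokine receptor Ccr1 followed them at 166, 250.1, 51.2 and 54.8 CPM against 21.3 ± 5.84 CPM in the host, and Mlxipl, a glucose-sensing transcription factor, at 76.5, 128, 10.2 and 19.6 CPM against 502 ± 29.3 CPM.

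Monocyte-derived microglia, the other donor-derived microglia of the series, were tested directly against the HSC-derived cells. With all libraries 200 genes passed (1.89%), 187 higher and 13 lower in HSC-derived cells, and with HSC-derived replicates 1 and 2 only 10 passed (0.0944%). Without HSC-derived replicate 3 the count was 33 and without replicate 4 it was 31, against 559 without replicate 1 and 528 without replicate 2, and without each 1 of the monocyte-derived libraries it was 49, 85, 99 and 68. The 10 genes were Ccr2, Cd74, Clec4b1, F13a1, Gadd45b, H2-Aa, H2-Ab1, H2-Eb1 and Plbd1, all higher in HSC-derived cells, and Mgst1, which was lower. Clec4b1, a C-type lectin, and Mgst1, a microsomal glutathione transferase, are named because they passed and had log2 differences of 1.80 and -1.09 with replicates 1 and 2 only.

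Of the 18 tested class II genes 4 were higher in HSC-derived than in monocyte-derived microglia, in both fits, with a median log2 difference of 0.34 over the list and -0.02 over all genes with all libraries. H2-Eb1 gave 536, 828, 930.4 and 799 CPM in monocyte-derived replicates 1 to 4, below every HSC-derived library (HSC-derived minus monocyte-derived log2 1.61, SE 0.20, adjusted p = 2.3e-05; 1.48 and 2.0e-05 with replicates 1 and 2 only). H2-Aa gave 928, 1527, 1637 and 1322 CPM (log2 1.503), H2-Ab1 970.1, 1632, 1645 and 1257 CPM (log2 1.48) and Cd74 873, 1371, 1410.4 and 1223 CPM (log2 1.38). Ccr2 stood at 38.0, 52.1, 48.3 and 53.5 CPM in monocyte-derived cells, again below the HSC-derived libraries (log2 1.21, adjusted p = 0.00052). Apoe and Ccl8 passed with all libraries (log2 0.95 and 2.18, adjusted p = 0.031 and 0.042) but not without any 1 of the monocyte-derived libraries, without either shallow replicate, or with replicates 1 and 2 only (adjusted p = 0.88 and 0.38). For Ms4a7 the difference was 0.17 (SE 0.18, adjusted p = 0.71) and for Sall1 -0.37 (SE 0.29, adjusted p = 0.58), with means of 780.2 ± 30.5 and 31.4 ± 8.59 CPM in monocyte-derived cells.

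**Figure D5:**
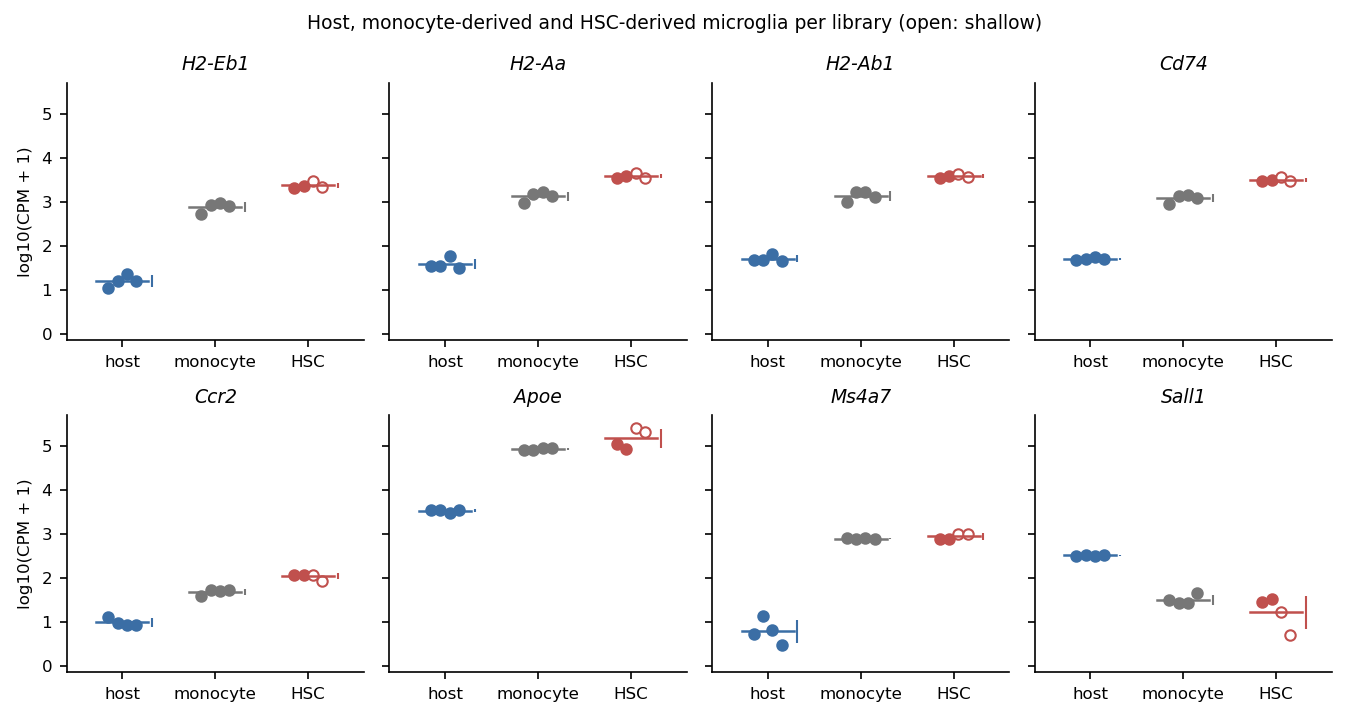
Level of 8 genes per library, as log10(CPM + 1), in host (blue), monocyte-derived (grey) and HSC-derived (red) microglia, with the mean of the 4 log values as a horizontal bar, its SD as a vertical line and open circles for the shallow HSC-derived replicates 3 and 4. The 4 class II genes and Ccr2 step up from host to monocyte-derived to HSC-derived, while for Ms4a7 and Sall1 the libraries of both donor groups overlap.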

How the data were processed

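MARS-seq, a 3' RNA-seq method with molecular identifiers, was applied to sorted cells, and the authors deposited unscaled UMI counts per gene for the 18 libraries with labels and 2 more, which matched no sample label and were not used. The genome build was mm10, per the submitters' processing notes; no source here names the aligner or counter.

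The counts of all 18 libraries were filtered (filterByExpr, minimum count 10), scaled by TMM and fitted in edgeR 4.0.16 (R 4.3.3) with 1 coefficient per group. A robust quasi-likelihood test, two-sided, was adjusted by Benjamini-Hochberg over all 10597 genes, at a threshold of 0.05; 2446 of 13043 genes were not tested. Where a group held 1 to 3 counts, folds are ratios of scaled counts with exact 95% intervals, and intervals and floors of 3 counts cover counting error only. On simulated data made for the HSC-derived against host contrast (10597 genes), 52% of 100 genes changed by 1 and 89% of 100 changed by 2 on the log2 scale were recovered, with 5 false calls. Libraries were drawn independently there, without the joint shift of HSC-derived replicates 3 and 4, so the false calls do not measure error from that shift. DESeq2 1.42.0, limma 3.58.1 (voom with sample quality weights), other scalings and filters, left-out libraries, thinning and a replicate block were tried as alternatives.

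Genes named are the 12 highest and 12 lowest called in both fits at 50 CPM or more without overlap, the 4 with the smallest p in each list, fixed markers, the 6 genes most and least shifted to the shallow libraries, and the top 4 each way against monocyte-derived microglia; exceptions are stated. Members, lists and tests were chosen with earlier results of these data known. Positions come from GENCODE vM21, which matched 12827 of 13043 symbols. Some named members are not reported here.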

Additional observations from a re-analysis of the deposited data

Results flagged for a closer look

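Within the 4 libraries of a group, 35 of the 307 sets of values for the named genes had a highest or lowest library set apart by more than Dixon's 95% limit. Chance alone flags about 1 in 20 groups; here 29 were flagged at the high and 6 at the low end. In 9 of them the other 3 libraries were at 0, so that the flag rests on a few counts: Vnn3 in host replicate 3 (0.351 CPM), Cd36 in host replicate 3 (0.351 CPM), Mgl2 in host replicate 1 (1.43 CPM), Mymk in HSC-derived replicate 1 (8.50 CPM), B3galt5 in HSC-derived replicate 2 (6.87 CPM), Phlda3 in HSC-derived replicate 1 (2.83 CPM), Cmah in host replicate 2 (0.455 CPM), Flt3 in host replicate 2 (0.455 CPM) and Clec4b1 in host replicate 4 (0.670 CPM).

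HSC-derived replicate 1 was set apart as the highest by Ptgs2 at 82.2 CPM (nearest 33.0) and Csf1r at 4398 CPM (nearest 4164). HSC-derived replicate 1 was set apart as the lowest by H2-Q7 at 68.0 CPM (nearest 119.6) and H2-DMb1 at 239 CPM (nearest 272). HSC-derived replicate 3 was set apart as the highest by Ifitm2 at 102 CPM (nearest 62.6), Srebf2 at 56.4 CPM (nearest 20.6) and H2-DMa at 1199 CPM (nearest 936). HSC-derived replicate 4 was set apart as the highest by Vnn3 at 145 CPM (nearest 56.4), Ctse at 247 CPM (nearest 143), F13a1 at 137 CPM (nearest 93.5), Cxcl16 at 481 CPM (nearest 420.2), Ly96 at 90.0 CPM (nearest 56.4) and Ifit1 at 27.4 CPM (nearest 17.0). HSC-derived replicate 4 was set apart as the lowest by Ccr2 at 86.1 CPM (nearest 113), Tnfrsf11a at 97.8 CPM (nearest 153) and Rsad2 at 0 CPM (nearest 15.4). Host replicate 1 was set apart as the highest by Sall3 at 96.6 CPM (nearest 78.4), Rfx5 at 20.8 CPM (nearest 15.5) and Ctss at 10803 CPM (nearest 9328). Host replicate 2 was set apart as the highest by Eng at 215 CPM (nearest 191), Runx1 at 176 CPM (nearest 157) and Ets1 at 50.5 CPM (nearest 39.3). Host replicate 2 was set apart as the lowest by H2-Q6 at 10.004 CPM (nearest 14.1). Host replicate 3 was set apart as the highest by H2-Aa at 55.8 CPM (nearest 33.7). Host replicate 4 was set apart as the highest by Trbc1 at 12.7 CPM (nearest 5.01) and Rps24 at 1088 CPM (nearest 797).

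Of the 17 genes whose change from the same host libraries was compared between HSC-derived and monocyte-derived microglia by the direct test of both donor groups, 7 differed at an adjusted p of 0.05 (edgeR quasi-likelihood test), each changed further in HSC-derived cells: H2-Eb1 (log2 1.61 further, 7.20 against 5.59), Apoe (log2 0.95 further, 5.603 against 4.65), Ccl8 (log2 2.18 further, 8.45 against 6.27), Cd74 (log2 1.38 further, 5.997 against 4.62), Ccr2 (log2 1.21 further, 3.66 against 2.45), H2-Aa (log2 1.503 further, 6.63 against 5.12) and H2-Ab1 (log2 1.48 further, 6.24 against 4.76). Both changes share the host libraries, and Apoe and Ccl8 rest on the shallow HSC-derived replicates 3 and 4. H2-Aa and H2-Ab1 were also named by a rule that required a pass in this same test, so their passing was fixed in advance. Over all genes, 1.89% passed it with all libraries and 0.0944% with HSC-derived replicates 1 and 2 only.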

How the results depend on the processing

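Of 154 named genes, 137 passed the test, 115 of these in every alternative that tested them, and 22 lost the call in at least 1. Many of these genes were named for passing or for a small p, so these counts do not describe all genes. With HSC-derived replicates 1 and 2 only, 7 named genes lost the call, while over all genes 69.8% of the 3114 calls were kept. Beside the 3114 genes called against the host, 2068 were called with only the 8 libraries in the fit (8282 genes tested), 1044 with these thinned to 264795 counts each (4618 tested) and 1655 with the replicate block in those 8 libraries, each with fewer libraries or genes tested; 2951 were called with the replicate block in all 18. The other alternatives gave 2190 to 3738 genes, and leaving out 1 library 2625 to 2900. Against monocyte-derived microglia the 200 genes became 20 with only 8 libraries, 10 with HSC-derived replicates 1 and 2 only, 552 with DESeq2, 238 with the replicate block and 31 to 559 without 1 library; the cause was not tested. Same-numbered HSC-derived and host libraries had correlations of deviations of -0.02 to 0.03, so the numbers are not taken to pair them.

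None of the named genes whose sign turned had passed the test. Over all genes, 3084 of the 3114 called kept their direction with HSC-derived replicates 1 and 2 only. With library totals alone the log2 change was -0.17 for H2-Ob, -0.16 for Ctss, -0.024 for Cd80, -0.028 for Spi1, -0.18 for Ifit1 and -0.29 for Trem2. With HSC-derived replicates 1 and 2 only it was 0.059 for Rfx5, -0.0509 for Ctss, -0.0497 for Ifit1, -0.21 for Trem2 and -0.14 for Tyrobp, and with the shallow border macrophage library left out too 0.060, -0.0509, -0.0511, -0.21 and -0.14. With limma voom it was -0.067 for Trem2. Without 1 library it ran from -0.047 to 0.18 for H2-Ob, from -0.058 to 0.25 for Ifit1 (-0.020 without host replicate 4) and from -0.057 to 0.20 for Trem2; the lowest came without HSC-derived replicates 2, 4 and 3. Depth limits low genes: 3 counts were 15.4 CPM in the shallowest library, so a gene below that level could not be told from absent there. The limma alternative was run as voom with sample quality weights, not as limma-trend.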
